A study of Homo sapiens and Mus musculus with 24 samples.

Results

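The 10 mRNAs described here encode proteins of the neuronal cytoskeleton and growth cone, namely Tubb3, Map2, Map1b, Mapt, Dcx, Stmn1, Stmn2, Gap43, Nefl and Nefm. They were chosen by name, found by their Ensembl identifiers through the GENCODE annotation, and are 10 of the 53715 genes counted in the mouse samples. Their recovery from 2 kinds of mouse cells was compared with and without UV irradiation, and long mRNAs (Map1b and Map2) were set against short mRNAs (Stmn1 and Gap43). Neuro2a is a line of mouse neuroblastoma cells, whereas HippCulture is a primary culture of hippocampal neurons from C57/BL6NCr mouse embryos of stage E16.5, treated with AraC against dividing glial cells. In each, 3 samples were irradiated with UV in a cold buffer and 3 were not, and these 12 of the 24 samples of the series carry the description. The other 12 are of the human lines HEK293 and HepG2, 3 irradiated and 3 nonirradiated of each, in which the orthologues were read. All were lysed in TRIzol and heated at 55 C for 10 min before chloroform was added, and the RNA of the aqueous phase was depleted of ribosomal RNA and sequenced. Neuro2a is a single line, and the hippocampal cultures hold every cell that survived the AraC treatment. The study calls its replicates biological, without stating how separate the cultures were, and the p-values below measure the spread between these samples.

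Neurons keep their shape and grow axons through microtubules and neurofilaments. Tubulins such as Tubb3 polymerise into microtubules, the microtubule-associated proteins Map2, Map1b, Mapt (tau) and Dcx (doublecortin) bind and stabilise them, and the stathmins Stmn1 and Stmn2 bind free tubulin and favour disassembly. Gap43 is a membrane protein of growth cones, and Nefl and Nefm are the light and medium neurofilament subunits. Short-wavelength UV links proteins to the RNA they touch, preferentially at uridines. In an acid phenol extraction RNA bound to protein moves to the interphase, so an RNA with more crosslinked protein is recovered less from the aqueous phase.

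Map1b and Map2 are long genes in their exons as well as their 3′ UTRs. Map1b (ENSMUSG00000052727.6, chr13:99421446-99516540, minus strand, mm10) has 15846 exon bases and an annotated 3′ UTR of up to 4363 bases. Map2 (ENSMUSG00000015222.17, chr1:66175273-66442583, plus strand) has 16449 exon bases and a 3′ UTR of up to 3579. Exon bases are those of all annotated transcripts together, and the Map2 transcript with the longest reading frame has 6258 bases. The short pair is Stmn1 (ENSMUSG00000028832.11, chr4:134468320-134473843, plus strand), with 1922 exon bases and a 3′ UTR of up to 443, and Gap43 (ENSMUSG00000047261.9, chr16:42248442-42340651, minus strand), with 1523 and 590. Uridines made up 29.9% of the Map1b, 32.4% of the Map2, 32.3% of the Stmn1 and 32.4% of the Gap43 3′ UTR. By this share the 3′ UTRs of the short mRNAs were no poorer in uridine. The share covers neither the rest of each mRNA nor the number of uridines. The 30 bases richest in uridine of the 3′ UTR are shown for Map1b, Stmn1 and Gap43, to show the kind of site at which UV can link protein, with the longest uridine run in capitals, T for U, 5′ to 3′, on build GRCm38 (mm10).
Map1b, chr13:99424412-99424441, minus strand, 27 uridines: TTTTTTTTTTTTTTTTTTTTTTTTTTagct
Stmn1, chr4:134473575-134473604, plus strand, 18 uridines: tgttttactcTTTTTTaaagtgttggtctt
Gap43, chr16:42248791-42248820, minus strand, 17 uridines: TTTgtttcttggtgttgttatggcgagttt
The longest run had 26 uridines in Map1b, 6 in Stmn1 and 3 in Gap43. A longer 3′ UTR offers more windows from which the richest is taken, and with 1 long gene shown these windows give no contrast of long with short mRNAs.

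The other members lie at chr8:123411424-123422015 (Tubb3, ENSMUSG00000062380.4, plus strand), chr11:104231390-104332090 (Mapt, ENSMUSG00000018411.17, plus strand), chrX:143855842-143933311 (Dcx, ENSMUSG00000031285.14, minus strand) and chr3:8509360-8561606 (Stmn2, ENSMUSG00000027500.10, plus strand). Nefl (ENSMUSG00000022055.7, chr14:68083863-68089095, plus strand) and Nefm (ENSMUSG00000022054.11, chr14:68082590-68124846, minus strand) overlap on opposite strands and share 1108 exon bases, 32.8% of Nefl and 19.2% of Nefm. The counting commands name no strand option and a read over several genes was counted for each, so reads in the shared bases cannot be assigned to either gene. Map2 shares 124 exon bases with the antisense gene Gm10558 and Stmn1 shares 66 with the miRNA gene Gm23634.

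The 12 mouse libraries held 6910907 to 9163323 counts on genes. The 10 mRNAs together took 0.339% to 0.378% of the counts in nonirradiated Neuro2a cells and 0.152% to 0.161% in irradiated ones, and 0.865% to 0.975% and 0.452% to 0.595% in HippCulture. Of 8 neuron markers, 8 reached a CPM (counts scaled to a common library size) of 0.5 in HippCulture, with a summed TMM-scaled level of 841 to 964 CPM without and 674 to 724 CPM with irradiation, and 3 did in Neuro2a (89.4 to 111 and 51.9 to 60.5 CPM). HippCulture also held all 6 astrocyte markers, at 530.4 to 543 CPM without and 668 to 678 CPM with irradiation, against at most 3.20 CPM in Neuro2a. Oligodendrocyte markers summed to 35.6 to 44.1 CPM, microglia markers to at most 8.44 CPM and fibroblast or vessel markers to at most 10.3 CPM in HippCulture. Proliferation markers summed to 688 to 1335 CPM in Neuro2a and 49.99 to 72.1 CPM in HippCulture, and sympathoadrenal neuroblastoma markers, led by Hand2, to 107 to 178 and at most 0.725 CPM. The part of this cell mixture in the differences below was not tested.

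Levels without irradiation were compared first. All 7 members present in Neuro2a were higher in HippCulture, most of all Map2 (21.1-fold), Gap43 (12.04-fold) and Mapt (9.16-fold), and least Map1b (1.32-fold). Dcx, Nefl and Nefm were nearly absent from Neuro2a. Levels between genes are given as RPKM, that is, CPM per kb of annotated exon with libraries scaled by edgeR's TMM method over the 12 samples. In bulk samples fewer expressing cells and less RNA per cell cannot be told apart.

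**Figure D1:**
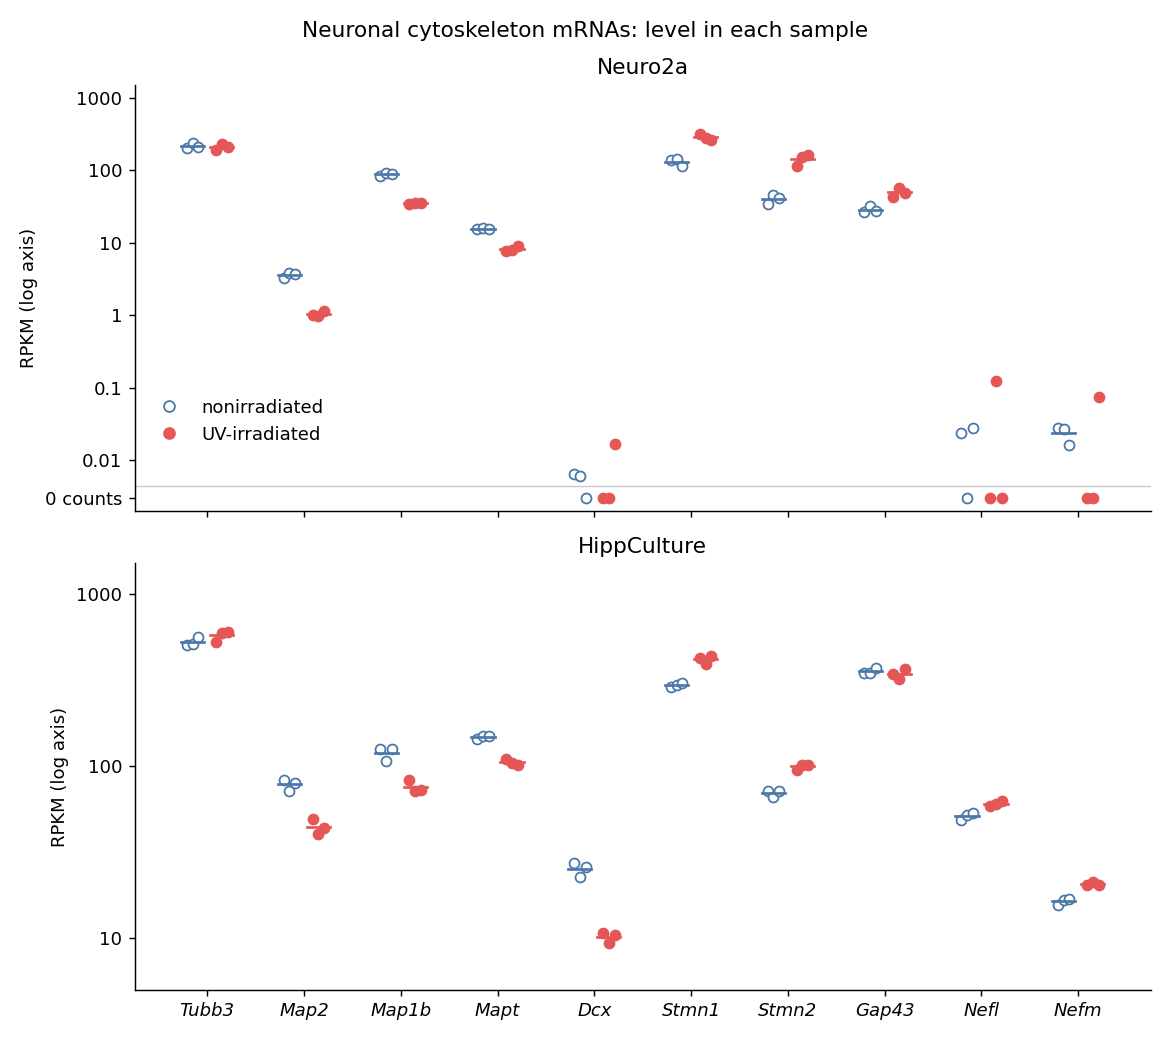
RPKM (log axis) of the 10 neuronal cytoskeleton mRNAs in each Neuro2a and HippCulture sample, open points nonirradiated and filled points UV-irradiated, with bars at the mean of 3 samples. In Neuro2a, samples with 0 counts are drawn below the grey line and no mean is given for genes with such samples. Map2, Map1b and Mapt sit lower after irradiation and Stmn1 and Stmn2 higher in both kinds of cells, as does Dcx lower in HippCulture.

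In nonirradiated Neuro2a cells the order of levels was Tubb3 (215 ± 19.7 RPKM, SD, n = 3), Stmn1 (132 ± 14.8), Map1b (88.1 ± 3.90), Stmn2 (40.1 ± 5.69), Gap43 (28.6 ± 3.47), Mapt (15.7 ± 0.298) and Map2 (3.60 ± 0.270), and no neighbours in this order overlapped. The order below Map2 cannot be given, since Nefm, Nefl and Dcx had at most 2 counts in any nonirradiated library. In HippCulture the order was Tubb3 (525 ± 32.3 RPKM, SD, n = 3), Gap43 (354 ± 14.1), Stmn1 (295 ± 8.33), Mapt (147 ± 2.86), Map1b (119 ± 11.0), Map2 (77.97 ± 5.80), Stmn2 (69.3 ± 3.28), Nefl (51.1 ± 2.36), Dcx (25.1 ± 2.40) and Nefm (16.3 ± 0.661), and of these neighbours only Map2 and Stmn2 overlapped. Gap43 stood 5th in Neuro2a and 2nd in HippCulture. These levels depend on the length used. With the length of the transcript that has the longest reading frame, Stmn1 came to 239 RPKM in Neuro2a and 534 RPKM in HippCulture, above Tubb3 in both, so that Tubb3 was no longer first. In HippCulture Mapt came to 492 RPKM, above Gap43 at 379 RPKM, and Map2 to 205 RPKM. The Mapt transcript used has 2250 bases, of which 2247 are reading frame. It thus holds almost none of the 3′ UTR of up to 3906 bases, while the counts cover 7531 exon bases.

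The cell types were compared with edgeR's quasi-likelihood test over 19367 genes, with p-values adjusted by Benjamini and Hochberg's method. All 7 members with counts in both were called higher in HippCulture, beside 41.3% of all genes called higher and 39.3% called lower. The log2 differences were 4.40 for Map2 (standard error (SE) 0.10), 3.59 for Gap43 (SE 0.10), 3.19 for Mapt (SE 0.08), 1.25 for Tubb3 (SE 0.09), 1.12 for Stmn1 (SE 0.09), 0.76 for Stmn2 (SE 0.09) and 0.40 for Map1b (SE 0.09, adjusted p = 0.000701). With library totals alone as the scaling, Map1b was at 0.26 (adjusted p = 0.0569). Of these 7, Map1b was the closest in level and Map2 the farthest apart.

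Dcx, Nefl and Nefm passed the filter on low counts only through HippCulture, so that they had to differ. Dcx had 1, 1 and 0 counts in the nonirradiated Neuro2a libraries and 3690, 2907 and 3380 in those of HippCulture. Nefl had 1, 0 and 1 counts against 1760, 1783 and 1867, and Nefm 2, 2 and 1 against 964, 984 and 1004. With all 3 libraries added up, the ratio of HippCulture to Neuro2a was 5677 for Dcx (exact 95% interval 1571 to 46886), 3079 for Nefl (852 to 25427) and 672 for Nefm (288 to 2071). The intervals cover counting error only.

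UV irradiation of Neuro2a cells lowered the recovery of the long mRNAs Map2, Map1b and Mapt and raised that of Stmn2, Stmn1 and Gap43, while Tubb3 was not called. Of the 7 members tested, 3 decreased and 3 increased, beside 33% and 28.9% of all 17425 genes tested (by the same edgeR test, called at an adjusted p below 0.05). All fold changes are relative to the bulk of the genes, which TMM sets near 0. With library totals alone the median of all genes moved by -1.18 on the log2 scale in Neuro2a and by -0.54 in HippCulture. On that scale 5 of the 7 members decreased in Neuro2a, Tubb3 (-1.20) and Gap43 (-0.38) among them, Stmn2 alone increased and Stmn1 was at -0.046.

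Map2 had 3.31, 3.83 and 3.68 RPKM in the nonirradiated and 1.02, 0.971 and 1.13 RPKM in the irradiated Neuro2a samples, from 639 to 812 and 75 to 87 counts. It was 3.39-fold lower (log2 fold change -1.76, SE 0.11, edgeR adjusted p = 1.6e-08), and 5.51% of the tested mRNAs had a lower fold change. Map1b, whose protein is cleaved into a heavy and a light chain that bind microtubules, went from 83.6, 90.6 and 90.0 to 34.7, 35.4 and 35.3 RPKM. Its log2 fold change was -1.30 (SE 0.09, edgeR adjusted p = 3.9e-08), and its 3 irradiated samples lay close together.

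Mapt had 15.4, 16.004 and 15.7 RPKM without and 7.74, 7.98 and 9.14 RPKM with irradiation, a log2 fold change of -0.89 (SE 0.10, edgeR adjusted p = 2.0e-06). For these 3 microtubule-associated proteins every irradiated sample lay below every nonirradiated one, as for 37.7% of all genes tested.

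Stmn1 showed the opposite, with 138, 143 and 115 RPKM in nonirradiated and 315, 282 and 263 RPKM in irradiated Neuro2a cells. It was 2.21-fold higher (log2 fold change 1.15, SE 0.11, edgeR adjusted p = 7.2e-07). Stmn2, the neuron-specific stathmin of growth cones, rose most, from 33.8, 44.9 and 41.6 to 114, 152 and 163 RPKM. Its increase was 3.64-fold (log2 fold change 1.86, SE 0.14, edgeR adjusted p = 6.9e-08), and 97.1% of the tested mRNAs had a lower fold change.

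Gap43 had 26.2, 32.6 and 27.1 RPKM without and 43.1, 56.7 and 48.4 RPKM with irradiation, a log2 fold change of 0.81 (SE 0.12, edgeR adjusted p = 4.6e-05). In these 3 genes every irradiated sample lay above every nonirradiated one, as for 29.6% of all genes tested. Tubb3, the neuronal β-tubulin, overlapped between the groups, with 202, 238 and 206 against 192, 231 and 212 RPKM. Its log2 fold change was 0.001 (SE 0.10, edgeR adjusted p = 0.995). Dcx had 0, 0 and 1 counts, Nefl 0, 2 and 0 and Nefm 0, 0 and 2 in the irradiated samples, and their recovery in Neuro2a cannot be compared.

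In HippCulture all 10 members could be tested. Dcx, Map2, Map1b and Mapt decreased and Stmn2, Stmn1, Nefm and Nefl increased, whereas Tubb3 and Gap43 were not called. These are 4 decreased and 4 increased of 10, beside 25.9% and 26.1% of all 18488 genes tested. With library totals alone 6 decreased, Tubb3 (log2 fold change -0.41) and Gap43 (-0.57) being added, and 0 increased. In every irradiated sample the summed TMM-scaled CPM of the astrocyte markers given above was higher than in every nonirradiated one. That of the neuron markers was lower. Single markers did not all follow these sums. Among neuron markers called, log2 fold changes ran from -0.91 to 0.54, and some astrocyte markers were not called. The markers are themselves mRNAs of the same libraries, so in these sums cell mixture and recovery after irradiation cannot be told apart. The part of these shifts in the members' values was not tested.

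Dcx, the microtubule-associated protein of migrating and immature neurons, fell most. It had 27.2, 22.5 and 25.7 RPKM in nonirradiated and 10.7, 9.39 and 10.4 RPKM in irradiated HippCulture. This was a 2.43-fold decrease (log2 fold change -1.28, SE 0.09, edgeR adjusted p = 4.1e-10), and only 1.73% of the tested mRNAs had a lower fold change. Map2 went from 82.7, 71.5 and 79.7 to 49.0, 40.1 and 43.2 RPKM (log2 fold change -0.80, SE 0.09, edgeR adjusted p = 4.7e-07).

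Map1b had 125, 107 and 126 RPKM without and 82.5, 71.4 and 72.0 RPKM with irradiation (log2 fold change -0.64, SE 0.09, edgeR adjusted p = 9.1e-06). Mapt, the axonal microtubule-associated protein, went from 144, 148 and 149 to 109, 103 and 101 RPKM (log2 fold change -0.47, SE 0.08, edgeR adjusted p = 8.3e-05). For all 4 microtubule-associated proteins the irradiated samples lay below the nonirradiated ones without overlap, as for 31.7% of all genes tested. Mapt was the least changed of them.

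Stmn1 had 287, 294 and 303 RPKM in nonirradiated and 424, 388 and 436 RPKM in irradiated HippCulture, a log2 fold change of 0.52 (SE 0.08, edgeR adjusted p = 2.8e-05). Stmn2 went from 70.9, 65.6 and 71.5 to 95.1, 101 and 102 RPKM, with a log2 fold change of 0.54 (SE 0.08, edgeR adjusted p = 1.3e-05). Both stathmins thus rose by about the same factor. Gap43 did not separate, with 347, 344 and 369.8 RPKM against 341, 320.3 and 367 RPKM (log2 fold change -0.02, SE 0.08, edgeR adjusted p = 0.850).

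Tubb3 had 505, 508 and 563 RPKM without and 525, 590 and 602 RPKM with irradiation (log2 fold change 0.15, SE 0.09, edgeR adjusted p = 0.185). It passed the threshold when replicate 1 of the irradiated samples was left out (log2 fold change 0.21, adjusted p = 0.0472). Among the neurofilament subunits, Nefm went from 15.5, 16.7 and 16.7 to 20.4, 21.3 and 20.3 RPKM (log2 fold change 0.36, SE 0.08, edgeR adjusted p = 0.000655). Nefl went from 48.6, 51.7 and 53.2 to 58.4, 60.1 and 62.5 RPKM (log2 fold change 0.26, SE 0.08, edgeR adjusted p = 0.00880), and without replicate 3 of the irradiated samples it was no longer called (log2 fold change 0.23, adjusted p = 0.0536). The stathmins and neurofilament subunits did not overlap between the groups, as for 28.4% of all genes tested. Nefl and Nefm share part of their reads and are no independent pair.

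**Figure D2:**
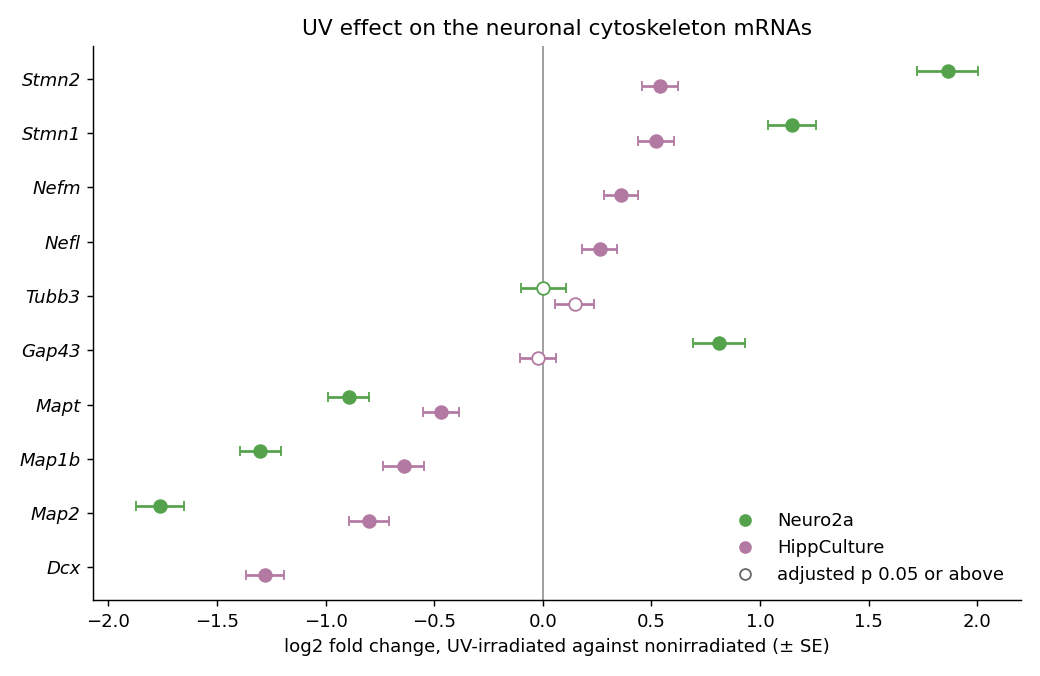
Log2 fold change of irradiated against nonirradiated samples (± SE, edgeR, 3 samples a group) for each member in Neuro2a and HippCulture, ordered by the value in HippCulture, with open points where the adjusted p was 0.05 or above. Map2 spans -1.76 in Neuro2a and -0.80 in HippCulture, and Stmn2 1.86 and 0.54.

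The contrast of long with short mRNAs can be read within each library, as the ratio of 2 counts, in which library scaling cancels. In Neuro2a, Map1b had 4.98, 5.24 and 6.45 counts for each Stmn1 count in the nonirradiated and 0.907, 1.04 and 1.11 in the irradiated libraries. This ratio was 5.45-fold lower after irradiation. On the log2 scale the change was -2.45 for Map1b to Stmn1, -2.11 for Map1b to Gap43, -2.91 for Map2 to Stmn1 and -2.57 for Map2 to Gap43. In each of these 4 ratios the 3 irradiated libraries lay below the 3 nonirradiated ones.

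In HippCulture, Map1b had 3.61, 2.99 and 3.42 counts for each Stmn1 count without and 1.603, 1.516 and 1.362 with irradiation, a 2.23-fold lower ratio. The log2 changes were -1.16 for Map1b to Stmn1, -0.62 for Map1b to Gap43, -1.32 for Map2 to Stmn1 and -0.78 for Map2 to Gap43, again without overlap between the groups. The change in Map1b to Gap43 was the smallest of the 8, with 3.76, 3.22 and 3.54 against 2.52, 2.32 and 2.04 counts. Each of the 8 gave p = 0.1 in a two-sided exact permutation test, the smallest p that 3 against 3 samples allow.

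**Figure D3:**
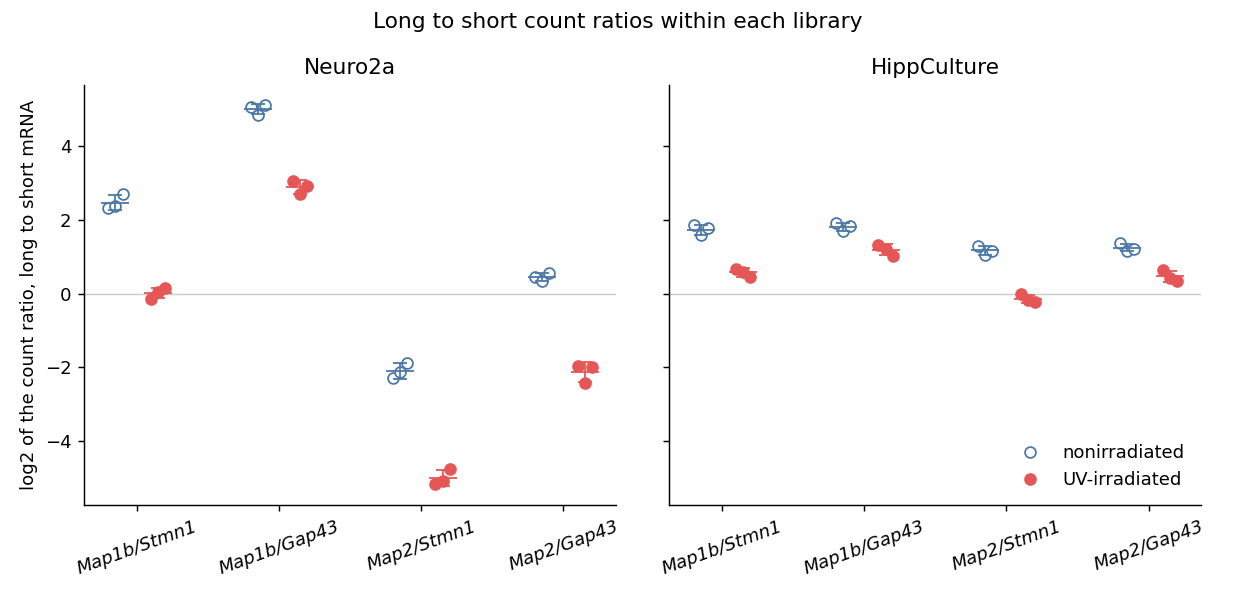
Log2 of the count ratio of a long to a short mRNA in each library, with the mean ± SD of 3 nonirradiated (open) and 3 UV-irradiated (filled) libraries. All 8 ratios are lower after irradiation, with changes of -2.91 to -2.11 in Neuro2a and -1.32 to -0.62 in HippCulture.

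The effect of irradiation was smaller in HippCulture than in Neuro2a for 6 of the 7 members tested in both. The same held for tested mRNAs at large. The shortest quartile by exon length had a median log2 fold change of 0.88 in Neuro2a and 0.64 in HippCulture. For the longest quartile it was -0.73 and -0.35. An interaction term in an edgeR fit of all 12 samples gave a less negative effect for Map2 (difference of log2 fold changes 0.97, SE 0.16, adjusted p = 0.00031), Map1b (0.66, SE 0.14, adjusted p = 0.0024) and Mapt (0.43, SE 0.13, adjusted p = 0.021). It gave a less positive effect for Stmn2 (-1.32, SE 0.17, adjusted p = 3.2e-05), Gap43 (-0.83, SE 0.15, adjusted p = 0.00080) and Stmn1 (-0.62, SE 0.14, adjusted p = 0.0041). Tubb3 was not called (0.15, SE 0.15, adjusted p = 0.485). Of the 14973 genes tested, 16.1% had a positive and 8.39% a negative difference, and the median over all of them was 0.14. Mapt was not called with DESeq2's size factors (0.34, adjusted p = 0.0648), nor without irradiated replicate 2 of Neuro2a (0.41, adjusted p = 0.0577) or irradiated replicate 3 of HippCulture (0.41, adjusted p = 0.0522). With library totals alone Stmn1 was at 0.02 and Gap43 was not called (-0.18, adjusted p = 0.464).

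Length went with the fold change over all mRNAs. Across 13119 mRNAs in Neuro2a and 13977 in HippCulture, Spearman's ρ between exon length and log2 fold change was -0.53 and -0.51, and with 3′ UTR length it was -0.50 and -0.54. These are descriptions across genes, which are not independent replicates and share the same libraries. Over the members ρ with exon length was -0.68 (7 genes) and -0.60 (10 genes). With reading frame length it was -0.93 and -0.52 over the members, and -0.42 and -0.34 over all mRNAs. With the uridine share of the 3′ UTR it was -0.33 and -0.39 over all mRNAs, and -0.21 and -0.49 over the members.

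Within quartiles of exon length, into which all tested mRNAs were split, the members still spread. The longest quartile starts at 6649 bases in Neuro2a and 6819 in HippCulture. By exon bases over all annotated transcripts, Map2, Map1b and Dcx are longer than 98.1%, 97.8% and 95.1% of mRNAs tested in HippCulture. Their transcripts with the longest reading frame have 6258, 11808 and 9074 bases. By exon bases most mRNAs of that quartile are thus shorter than these members, and distances from its median are no comparison at equal length. In Neuro2a the longest quartile had a median log2 fold change of -0.73, below which Map2 lay by 1.03, Map1b by 0.57 and Mapt by 0.16. In the same quartile of HippCulture, with a median of -0.35, Dcx lay lower by 0.93, Map2 by 0.45, Map1b by 0.30 and Mapt by 0.12. Stmn2 has 5602 exon bases over all its annotated transcripts, more than 64.1% of mRNAs. It stood 2.05 above the median of its quartile in Neuro2a and 0.60 above it in HippCulture. Its transcript with the longest reading frame has only 2073 bases, with a reading frame of 537. By reading frame length Stmn2 fell in the shortest quartile, whose medians were 0.76 and 0.45. In the shortest quartile, with medians of 0.88 and 0.64, Stmn1 differed from the median by 0.27 and -0.11, Gap43 by -0.07 and -0.66, and Tubb3 by -0.88 and -0.49.

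**Figure D4:**
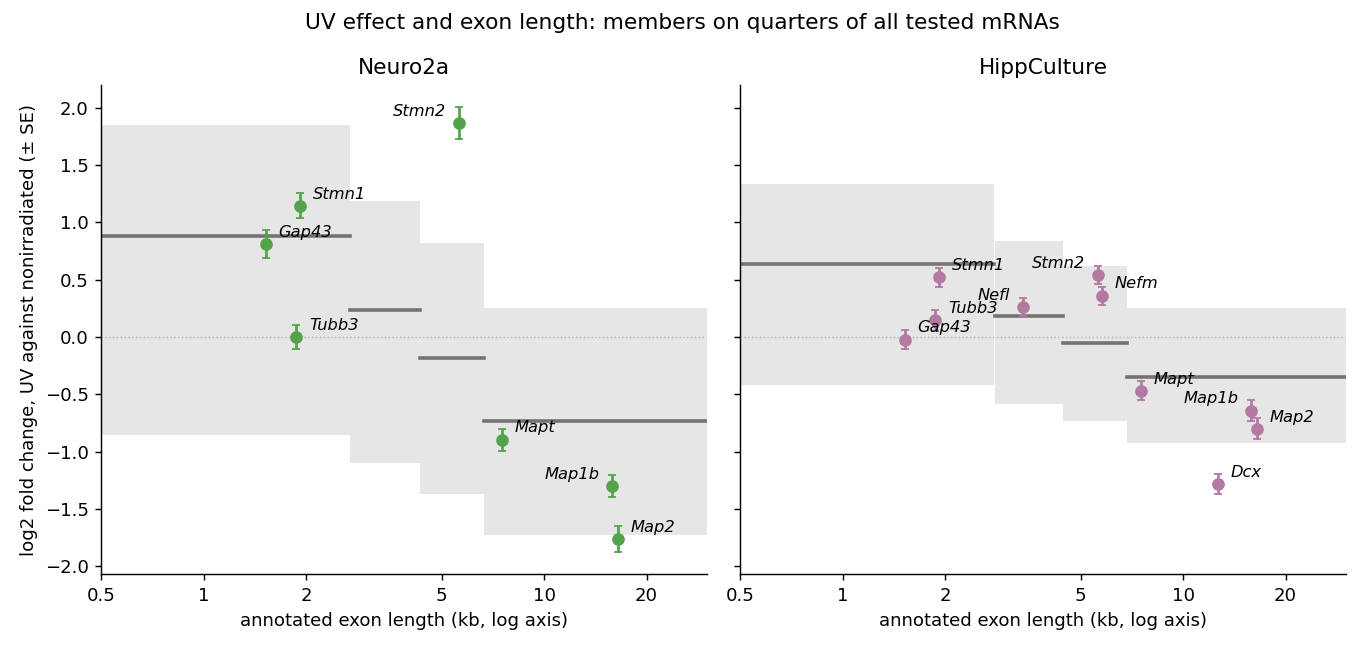
Log2 fold change (± SE) of the members against annotated exon length (log axis), over all tested mRNAs split into quartiles by exon length, whose medians are grey lines and whose 10th to 90th percentiles are shaded. The outer quartiles run beyond the axis. In HippCulture Dcx, at -1.28, lies below the shaded range of its quartile, and the other members lie within theirs. In Neuro2a Stmn2, at 1.86, lies above its range and Map2, at -1.76, just below.

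Other genes of the neuronal cytoskeleton were read from a list of 52, which holds none of the members. In Neuro2a 16 decreased and 19 increased of 48 tested, beside the 33% and 28.9% of all genes tested (median log2 fold change 0.04, against -0.14 over all genes tested). In HippCulture 18 decreased and 24 increased of 51, beside 25.9% and 26.1% (median 0.17 against -0.04). The groups within the list are given as counts, to be read against these shares. Of the other tubulins, 9 of 10 tested increased in Neuro2a and 10 of 10 in HippCulture, with medians of 1.21 and 0.81, so that Tubb3 stood below its family in both. The exception in Neuro2a was Tuba4a (log2 fold change -0.35, adjusted p = 0.553). Most of these tubulins fall in the shortest quartile by exon length, where 62.1% of mRNAs increased in Neuro2a and 57.5% in HippCulture. Tubb2b rose by 1.41 (SE 0.21) in Neuro2a, and Tubg1, the tubulin of microtubule nucleation, by 1.33 (SE 0.15) in HippCulture.

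The other stathmins, Stmn3 and Stmn4, increased like Stmn1 and Stmn2, with log2 fold changes of 1.39 and 0.97 in Neuro2a and 0.80 and 0.66 in HippCulture. With 1136 and 1916 exon bases both fall in the shortest quartile, where 62.1% of mRNAs increased in Neuro2a and 57.5% in HippCulture. Of 5 other intermediate filament genes 3 increased in Neuro2a and 4 in HippCulture, beside 28.9% and 26.1% of all genes tested, and 0 decreased. Prph, the peripheral neuron filament peripherin, went from 488, 472 and 502 to 1212, 1282 and 1408 RPKM in Neuro2a (log2 fold change 1.44, SE 0.10, edgeR adjusted p = 3.2e-08). In HippCulture, where Prph had only 4.71 to 4.997 RPKM without irradiation, its log2 fold change was 1.10 (SE 0.13, edgeR adjusted p = 7.1e-07).

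The microtubule-associated proteins of the list were mixed, with 5 decreased and 3 increased of 11 in Neuro2a and 7 and 4 of 12 in HippCulture. Motors of axonal transport decreased in 4 of 7 in Neuro2a and 5 of 8 in HippCulture, with 1 increased in each. Spectrins and ankyrins decreased in 4 of 5 and 3 of 5. These stand beside 33% and 25.9% of all genes tested. Most motors and all spectrins and ankyrins fall in the longest quartile by exon length. There 62.5% of mRNAs decreased in Neuro2a and 52.3% in HippCulture. Growth cone genes held the largest decreases of the list. Dpysl2, the tubulin-binding protein CRMP2, went from 23.2, 22.1 and 20.5 to 5.83, 4.67 and 5.30 RPKM in Neuro2a (log2 fold change -2.03, SE 0.11, edgeR adjusted p = 4.1e-09). Marcks, which binds actin at the membrane as Gap43 does, fell by 1.88 (SE 0.12) there. In HippCulture Dpysl2 fell by 0.94 (SE 0.09) and Marcks by 0.90 (SE 0.08). Of the 9 growth cone genes 3 decreased in each kind of cells, of 8 tested in Neuro2a and 9 in HippCulture, close to the 33% and 25.9% of all genes tested, and 1 and 2 increased.

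**Figure D5:**
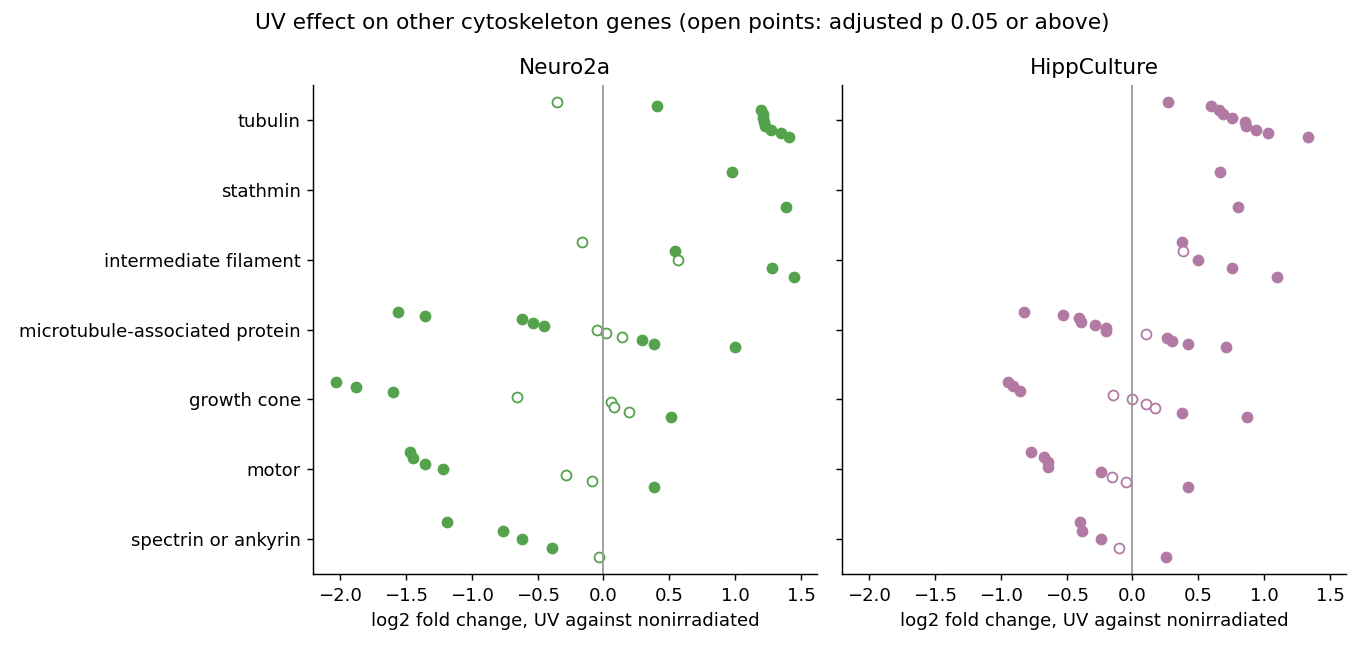
Log2 fold change of irradiated against nonirradiated samples for the other cytoskeleton genes by group (1 point a gene, filled where the adjusted p was under 0.05). All 10 tubulins tested in HippCulture lie above 0, and the growth cone genes spread from -2.03 to 0.51 in Neuro2a.

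The genes most like Map1b over the 12 samples, by Pearson's r of log2 CPM among 12064 mRNAs, were Zdhhc21 (r = 0.997), 4932438A13Rik (0.996) and Nfib (0.996). Their exon lengths were 12972, 32279 and 14957 bases. For Stmn1 they were Pop4 (0.988), Gtf2h5 (0.988) and Atp6v1e1 (0.987), with 2848, 3855 and 4110 exon bases. The 12 samples fall into the 4 groups of cell type and irradiation, so r here describes a likeness of group levels.

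The human orthologues were read in HEK293, an embryonic kidney line, and in HepG2, a liver cancer line. MAP1B had 1862 to 1935 counts in nonirradiated and 550 to 796 in irradiated HEK293 libraries (n = 3 each) and decreased by 0.85 on the log2 scale (SE 0.12, edgeR adjusted p = 0.00054). STMN1 rose by 0.82 (SE 0.14, edgeR adjusted p = 0.0013) and TUBB3 by 0.63 (SE 0.18, edgeR adjusted p = 0.018). Of 7 orthologues tested 1 decreased and 2 increased, beside 26.4% and 24.2% of all genes tested. With the replicate number as a block, which the pairing of these samples allows, 3 decreased and 3 increased, with MAP2 (log2 fold change -1.27), MAPT (-0.38) and NEFL (0.50) added.

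In HepG2, of 6 orthologues tested 4 decreased and 2 increased, beside 40.7% and 38.1% of all genes tested. MAP1B fell by 1.23 (SE 0.09) and MAPT by 0.68 (SE 0.18), and STMN1 rose by 1.13 (SE 0.11) and TUBB3 by 1.22 (SE 0.07). GAP43, short in both species, fell more than MAP1B did. It had 79 to 110 counts in nonirradiated and 1 to 8 in irradiated libraries (n = 3 each), a log2 fold change of -3.15 (SE 0.45, edgeR adjusted p = 0.00018), although its 2087 exon bases are the fewest of the 10 orthologues. DCX had 93 to 139 and 4 to 10 counts, a log2 fold change of -3.005 (SE 0.35, edgeR adjusted p = 4.7e-05). The log2 ratio of MAP1B to STMN1 counts changed by -1.67 in HEK293 and by -2.37 in HepG2, each without overlap of the 3 irradiated and 3 nonirradiated libraries (two-sided exact permutation test p = 0.1, the smallest possible). Human STMN1 has 6261 annotated exon bases, against 1922 in mouse Stmn1, and is longer than human TUBB3 with 4430. By this measure its ratio to MAP1B is thus no contrast of a long with a short mRNA. With GAP43 as the short mRNA the contrast in HepG2 would run the other way, though on only 1 to 8 irradiated counts.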

How the data were processed

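RNA of 3 nonirradiated and 3 UV-irradiated samples of each cell type was analysed. The authors mapped reads with TopHat2 2.1.1 to mm10 or hg38 and deposited raw counts per gene, made with featureCounts 1.6.1 (1.5.3 for HepG2) on GENCODE M17 or 28, along with exon lengths. The labels name a stranded kit, the methods an unstranded one, and the commands name no strand option. Genes with a mean of at least 0.5 CPM in nonirradiated samples were tested by quasi-likelihood in edgeR 4.0.16 (R 4.3.3), with TMM scaling and Benjamini-Hochberg adjustment (called under 0.05), each cell type alone and all 12 mouse samples for the interaction. SE is the log2 fold change divided by the square root of F. Annotation for coordinates and 3′ UTRs was GENCODE M21 (44 for human), matching 99.82% of mouse and 99.0% of human genes. log2 CPM for likeness had a pseudocount of 0.5. Replicate numbers were taken to pair samples where every correlation of same-numbered deviations exceeded 0.1, which held for HEK293 (0.364 to 0.650) but not for Neuro2a, HippCulture or HepG2. Counts over the Neuro2a design (16042 genes) were simulated with a fixed spread that was not estimated from these data. In them 92.1% of genes changed by 2 on the log2 scale and 42.4% of those changed by 1 were recovered. Of the calls 6.2% were false. Simulated alike, 32.6% of genes changed by 1 were recovered over the HippCulture design and 10.5% for the interaction. Named genes were the 10 members, the 2 most decreased and increased of the wider list in each cell type, and the 3 most like Map1b and Stmn1. Stathmins 3 and 4 and Tuba4a were added after their values were seen. Members and lists were chosen with earlier results of these data known. Alternatives were DESeq2's size factors or test (1.42.0), library totals, other filters, a replicate block and leaving out each sample. Intervals of count ratios are exact for 95%. Some items are not reported here.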

Additional observations from a re-analysis of the deposited data

Results flagged for a closer look

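For 6 members the effect of irradiation differed between HippCulture and Neuro2a by the interaction term of edgeR, with n = 3 samples in each of the 4 groups. The difference of log2 fold changes, HippCulture minus Neuro2a, was 0.97 for Map2, 0.66 for Map1b and 0.43 for Mapt, which decreased in both kinds of cells, and -0.62 for Stmn1 and -1.32 for Stmn2, which increased in both. For Gap43 it was -0.83, where Neuro2a had an increase and HippCulture a log2 fold change of -0.02. These are 3 positive and 3 negative differences of 7 members, beside 16.1% and 8.39% of all genes tested. Fold changes of all tested mRNAs also spread less in HippCulture, as given above. The call of Mapt was lost with DESeq2's size factors (edgeR adjusted p = 0.0648) and without either of 2 samples (adjusted p of 0.0577 and 0.0522), and with library totals alone Stmn1 was at 0.020 and the call of Gap43 was lost (adjusted p = 0.464).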

How the results depend on the processing

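Library totals alone, in place of TMM, moved most values. Of the members 5 decreased and 1 increased in Neuro2a (12852 and 1058 of all genes), 6 decreased and 0 increased in HippCulture (9149 decreased and 1320 increased of all genes), and the interaction was negative for 1 (64 negative and 7519 positive of all genes). Log2 fold changes turned to -1.20 for Tubb3, -0.046 for Stmn1 and -0.38 for Gap43 in Neuro2a, to -0.41 for Tubb3, -0.026 for Stmn1, -0.013 for Stmn2, -0.29 for Nefl and -0.19 for Nefm in HippCulture, and to 0.020 for the interaction of Stmn1. In HEK293 they turned to -0.14 for TUBB3, -0.21 for NEFL and -0.48 for NEFM, with 3 orthologues decreased and 0 increased, and in HepG2 to -0.087 for TUBB3 and -0.17 for STMN1, with 0 increased. Tubb3 in Neuro2a, at 0.001, turned to -0.043 with DESeq2's size factors and test, -0.079 without a filter and -0.14 with at least 10 counts in every sample, and ran from -0.077 to 0.080 without each sample in turn. Gap43 in HippCulture ran from -0.080 to 0.053 and NEFM in HEK293 from -0.077 to 0.50 without each sample in turn. Without a filter 766 genes had a negative interaction, and with 10 counts in every sample 4939 were lower and 4915 higher in HippCulture without irradiation and 2 orthologues decreased in HepG2. In HEK293 the decreased orthologues were 2 with DESeq2 or without a filter, 3 with the replicate block and 1 to 2 without each sample, and the increased ones 1 to 3. Same-numbered samples correlated at 0.0988 to 0.283 in Neuro2a and 0.0587 to 0.136 in HippCulture, and the replicate block there left the counts of members at 3 and 3 and at 4 and 4, and changed no member's call. The ratios of long to short mRNAs ran from -3.03 to -2.01 in Neuro2a and -1.39 to -0.54 in HippCulture without each sample. The causes of these shifts were not tested. With 3 samples a group, changes of 1 on the log2 scale were often missed in simulated counts. Their spread was fixed and not estimated from these data, so they do not measure what was missed here. Dcx, Nefl and Nefm were too low in Neuro2a for any comparison of recovery.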
